A study of Mus musculus with 50 samples.

Results

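The erythroid programme was described through 10 genes, taken as the rows of the count matrix with these names, out of 19224 genes counted. They comprise 3 regulators (Klf1, Gata1 and Epor), 4 further erythroid genes (Car1, Car2, Ermap and Tspo2) and 3 globins (Hba-a1, Hbb-bs and Hbb-bt). The cells came from mice that had received a single haematopoietic stem cell (HSC). Donors were B6-Ly5.2 mice carrying a β-actin-GFP transgene, in which the β-actin promoter drives GFP, and each donor HSC was given together with unfractionated B6-Ly5.2 marrow as competitor to a lethally irradiated B6-Ly5.2 recipient. Cells were collected 1, 4 or 12 months later, and the labels list 10, 26 and 14 samples at these times, of which 5, 4 and 6 were of marrow with spleen and 5, 22 and 8 of marrow alone. All groups share the transplantation and the irradiation, no untransplanted group is labelled, and competitor and host cells may be among those sorted. Cells were enriched for c-Kit and sorted one by one on CD201, CD150, CD48, Sca-1, c-Kit and a lineage cocktail with the red cell antigen TER-119, or on GFP, and the sort can set every share given here. Cell names give a library and a cell number but neither sample, month, tissue nor gate, so no comparison between months or tissues was made. The whole matrix was treated as 1 pooled sample, with no test, no p-value and no replicate error.

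Red cells arise from stem and progenitor cells through a stepwise erythroid programme. The zinc finger factor GATA1 and the Krüppel-like factor KLF1 switch on red cell genes, and the erythropoietin receptor, encoded by Epor, carries the survival signal of the hormone erythropoietin. Globin genes are induced late and then dominate the transcriptome of erythroblasts, so that globin RNA from lysed red cells is a familiar background in blood-forming tissue. Procr encodes CD201 (EPCR), a surface protein used to enrich HSCs.

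The regulator Klf1 and the globins are known to share promoter elements for GATA factors, KLF factors and CCAAT-binding proteins, and their upstream sequences are shown because these 4 genes carry the contrast between regulator and globins in the cells. Each is the 250 bases before the RefSeq start on GRCm38.p6, written 5′ to 3′ on the gene's strand. The windows are chr8:84901732-84901981 (plus) for Klf1, chr11:32283422-32283671 (plus) for Hba-a1, chr7:103827929-103828178 (minus) for Hbb-bs and chr7:103813924-103814173 (minus) for Hbb-bt. Capitals mark 3 short motifs found on either strand. The first, GATAA, belongs to GATA factors and appears as TTATC when it lies on the other strand. The second, CACCC, is bound by KLF factors and appears there as GGGTG. The third, the CCAAT box, appears there as ATTGG.
Klf1: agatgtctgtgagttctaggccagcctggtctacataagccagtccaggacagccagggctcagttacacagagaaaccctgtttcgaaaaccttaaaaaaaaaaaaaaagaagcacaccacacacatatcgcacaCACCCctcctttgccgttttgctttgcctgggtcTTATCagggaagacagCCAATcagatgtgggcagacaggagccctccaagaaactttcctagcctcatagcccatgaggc
Hba-a1: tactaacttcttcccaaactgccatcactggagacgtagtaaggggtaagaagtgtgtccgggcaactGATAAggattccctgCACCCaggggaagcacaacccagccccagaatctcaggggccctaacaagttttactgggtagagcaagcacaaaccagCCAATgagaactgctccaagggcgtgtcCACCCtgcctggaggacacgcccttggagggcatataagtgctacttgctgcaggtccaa
Hbb-bs: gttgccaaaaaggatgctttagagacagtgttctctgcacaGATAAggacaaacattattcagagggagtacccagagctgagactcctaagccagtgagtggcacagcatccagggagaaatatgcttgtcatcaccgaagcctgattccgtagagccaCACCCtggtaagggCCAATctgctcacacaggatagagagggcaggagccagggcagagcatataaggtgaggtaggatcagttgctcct
Hbb-bt: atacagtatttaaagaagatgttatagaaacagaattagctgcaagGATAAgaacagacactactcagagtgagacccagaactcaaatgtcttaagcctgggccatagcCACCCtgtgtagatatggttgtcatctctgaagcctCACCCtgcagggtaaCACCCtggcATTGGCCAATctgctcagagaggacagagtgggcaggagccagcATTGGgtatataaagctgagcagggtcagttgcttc
In these windows GATAA lies on the minus strand in Klf1, at 80 to 76 bases before the start, and on the plus strand in the 3 globins, at 182 to 178 bases in Hba-a1, 209 to 205 in Hbb-bs and 204 to 200 in Hbb-bt. CCAAT on the plus strand lies at 64 to 60 bases in Klf1, 88 to 84 in Hba-a1, 76 to 72 in Hbb-bs and 75 to 71 in Hbb-bt. All 3 motifs occur in the windows of Klf1, Ermap and the 3 globins, which are 5 of the 8 members matched in RefSeq. Over 32851 promoter windows of the same length, 22.6% held the GATA motif, 52.0% held the KLF motif, 33.8% held the CCAAT box and 3.45% held all 3. No motif of the 3 overlapped another, and a match describes letters only.

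After removal of cells with under 1000 detected genes (76 cells) or over 10% mitochondrial counts (10 cells), 4185 of 4271 cells were kept, in 67 libraries of 21 to 92 kept cells. A kept cell had a median of 122013 counts, and libraries held 1665151 to 26184494 counts. A median of 10 counts per detected gene in a cell was found. The labels do not say if reads or molecules were counted, so intervals cover counting error only and are too narrow if amplified copies were counted. Of the cell numbers in the cell names, 92 of 95 occurred in more than 1 library. Procr was counted in 3263 cells (78.0%), called Procr+ cells below, with a median depth of 133165 counts. The 922 Procr-0 cells had no Procr count at a median depth of 73874 counts. Because depth differs, shares are also given after each cell was thinned to 20000 counts, which left out 171 Procr+ and 188 Procr-0 cells.

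Most of the non-globin genes were sparser in Procr+ than in Procr-0 cells, whereas Car2 and the globins were found in most cells of both kinds. By summed counts, 5 of the 10 genes (Klf1, Gata1, Car1, Ermap and Tspo2) were at least 2-fold lower in Procr+ cells, against 5.68% of the 9982 genes compared. None was at least 2-fold higher, against 3.56% of all genes. The median log2 ratio of Procr+ to Procr-0 cells, on counts scaled to 1000000 per group (counts per 1000000, CPM) with 1 CPM added to both, was -1.23 over the 10 genes and 0.05 over all genes compared. The pooled ratio was not shared by the libraries. Among 40 libraries with at least 5 cells of both kinds, Klf1 was lower in Procr+ cells in 15 and higher in 21, and Gata1 was lower in 21 and higher in 18. Without the 23 libraries that held 3 or more cells rich in erythroid genes (defined below), only Car1 of the 10 genes was at least 2-fold lower, at a log2 ratio of -2.07. Markers of other cell types were also lower in Procr+ than in Procr-0 cells, at 1646 and 10892 CPM summed over 8 neutrophil markers, 33.5 and 238 CPM over 6 of basophils and mast cells, 113 and 509 CPM over 8 of B cells and 25.3 and 184 CPM over 7 of T cells. All of these markers had counts in both groups, and their part in the ratios was not tested. In bulk sums of this kind, fewer cells with a gene and fewer counts per cell cannot be told apart, and both are given.

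**Figure D1:**
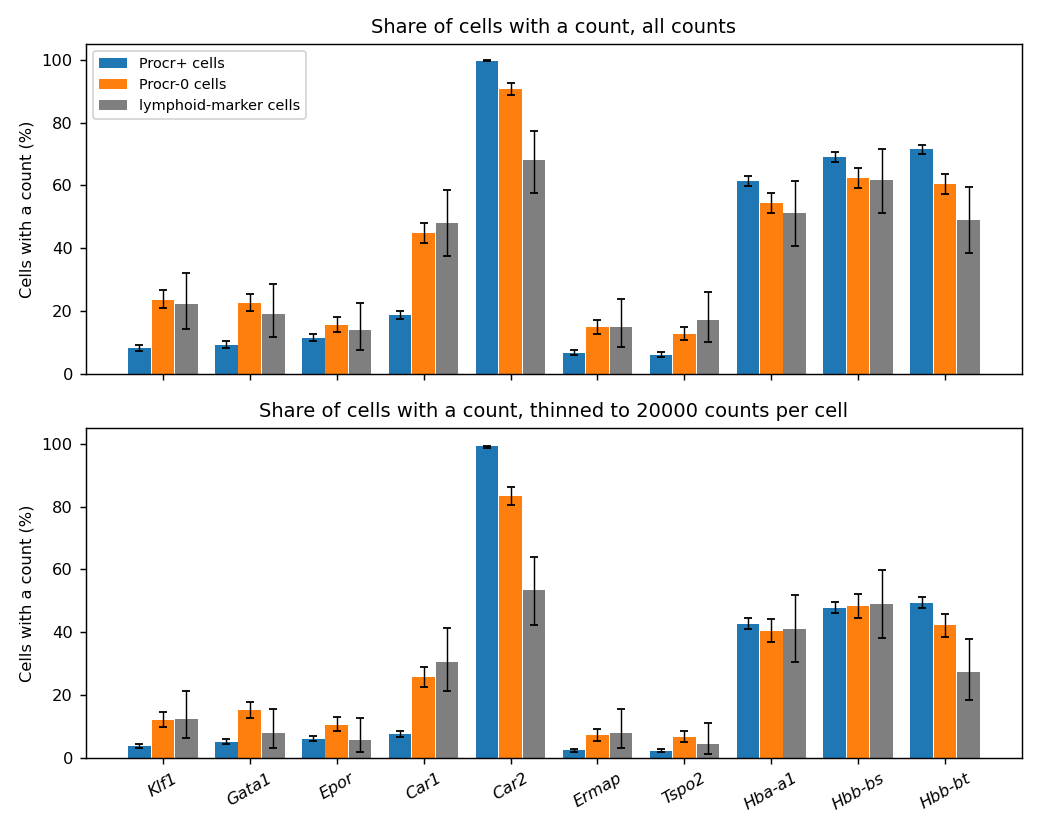
Share of cells with a count of each gene (%, bars with exact 95% intervals for counting error) in Procr+, Procr-0 and lymphoid-marker cells, with all counts (top) and after thinning to 20000 counts per cell (bottom). Car2 is at or near 100% in Procr+ cells in both panels, the globins lie between 27.3% and 49.5% after thinning in every group, and the remaining genes are the sparse ones in Procr+ cells.

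Among the regulators, Klf1 (ENSMUSG00000054191.8, chromosome 8, 84901928 to 84905291, plus strand, GRCm38 as for all positions here) was counted in 8.31% of Procr+ cells (exact 95% interval 7.38 to 9.31) and 23.6% of Procr-0 cells (20.9 to 26.5). Its level was 9.40 CPM in Procr+ cells (exact Poisson interval 9.13 to 9.67) and 52.5 CPM in Procr-0 cells (51.2 to 53.8), a log2 ratio of -2.36. Most detections were slight, since 54.6% of the Procr+ cells with Klf1 held 1 count of it, while 1 cell held 538 of the 4783 Klf1 counts. Gata1 (ENSMUSG00000031162.14, chromosome X, 7959260 to 7978071, minus strand) was counted in 9.32% of Procr+ cells (8.34 to 10.4) and 22.6% of Procr-0 cells (19.9 to 25.4). Its levels of 9.90 and 46.9 CPM gave a log2 ratio of -2.14, and this ratio was -1.21 without library Lib22 alone. Epor (ENSMUSG00000006235.6, chromosome 9, 21958897 to 21963506, minus strand) differed least of the 3 regulators, with 11.4% of Procr+ (10.3 to 12.5) and 15.5% of Procr-0 cells (13.2 to 18.0). Epor stood at 8.97 and 17.9 CPM, a log2 ratio of -0.92. This ratio was -0.51 without Lib22 and turned to 0.35 without the 23 libraries holding 3 or more erythroid-rich cells, and Epor was lower in Procr+ cells in 19 and higher in 21 of the 40 libraries, so no direction is given for its level. After thinning, the shares in Procr+ and Procr-0 cells were 3.72% and 12.1% for Klf1, 5.08% and 15.1% for Gata1, and 6.14% and 10.6% for Epor, so the order of the groups held at 1 depth.

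At least 1 regulator was counted in 727 of 3263 Procr+ cells, or 22.3% (20.9 to 23.7), and in 37.2% of Procr-0 cells (34.1 to 40.4). Thinned shares were 11.9% and 24.9%. All 3 regulators together were counted in 41 Procr+ cells, 1.26% (0.903 to 1.70), and in 68 Procr-0 cells, 7.38% (5.77 to 9.26). In the Procr+ cells that also had Slamf1, which encodes CD150, and no Cd48 count, the RNA counterpart of the surface phenotype used for HSCs, all 3 were found in 1 of 857 cells. Those 857 cells still carried Gata1 in 9.80% (7.89 to 12.0) at 13.9 CPM and Epor in 12.3% (10.1 to 14.6), whereas Klf1 was in 4.90% (3.55 to 6.57) at 4.98 CPM.

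The carbonic anhydrase genes behaved in opposite ways although they are neighbours on chromosome 3. Car1 (ENSMUSG00000027556.15, 14766216 to 14808368, minus strand), the erythrocyte form, was counted in 18.8% of Procr+ cells (17.4 to 20.1) at 41.7 CPM and in 44.8% of Procr-0 cells (41.6 to 48.1) at 316 CPM. The log2 ratio of -2.89 was the lowest of the 10 genes, and Car1 was lower in Procr+ cells in 16 and higher in 12 of the 40 libraries. Car2 (ENSMUSG00000027562.12, 14886273 to 14900770, plus strand) was counted in 99.7% of Procr+ cells (99.4 to 99.9) at 1479 CPM and in 90.8% of Procr-0 cells (88.7 to 92.6) at 1068 CPM. Per kilobase of exon, Car2 was at 610.5 CPM and Car1 at 33.4 CPM in Procr+ cells. Because 3' fragments were pulled down, counts need not scale with length, and the unscaled CPM values are the ones to compare. After thinning, the Car2 share was 99.2% in Procr+ cells and, at 83.5%, lower than with all counts in Procr-0 cells. It was found in all 857 Procr+ Slamf1+ Cd48-0 cells.

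Ermap and Tspo2 were the sparsest members. Ermap (ENSMUSG00000028644.16, chromosome 4, 119175457 to 119190011, minus strand) encodes an erythroblast membrane protein and was counted in 6.68% of Procr+ cells (5.85 to 7.59) and 14.8% of Procr-0 cells (12.5 to 17.2), at 7.22 and 23.0 CPM. Tspo2 (ENSMUSG00000023995.12, chromosome 17, 48447907 to 48451522, minus strand), an erythroid relative of the translocator protein gene Tspo, was in 6.07% (5.27 to 6.94) and 12.7% (10.6 to 15.0), at 5.55 and 22.5 CPM. The log2 ratios were -1.54 and -1.84. Among the 40 libraries with at least 5 cells of both kinds, Ermap was lower in Procr+ cells in 16 and higher in 12. Tspo2 was lower in 11 and higher in 17, so most libraries in which it differed went against its pooled ratio. Ermap and Tspo2 were at 1 count in 58.7% and 60.6% of the Procr+ cells that had them, and their thinned shares in Procr+ cells were 2.39% and 2.30%.

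The globins were found far more widely than the regulators that precede them in red cell development. Hba-a1 (ENSMUSG00000069919.7, chromosome 11, 32283511 to 32284465, plus strand), an adult alpha-globin gene, was counted in 61.4% of Procr+ (59.7 to 63.1) and 54.3% of Procr-0 cells (51.1 to 57.6). The beta-globin gene Hbb-bs (ENSMUSG00000052305.6, chromosome 7, 103826534 to 103828096, minus strand) was in 68.9% (67.3 to 70.5) and 62.5% (59.3 to 65.6). Its neighbour Hbb-bt (ENSMUSG00000073940.3, chromosome 7, 103812524 to 103813996, minus strand) was in 71.4% (69.8 to 73.0) and 60.5% (57.3 to 63.7). A globin was counted in 88.4% of Procr+ cells (87.3 to 89.5; thinned 72.7%) and in 81.1% of Procr-0 cells (78.5 to 83.6; thinned 65.4%). All 3 globins were present together in 45.5% of Procr+ cells. A globin without any regulator was the commonest state, in 68.1% of Procr+ cells (66.5 to 69.7), against 1.96% (1.51 to 2.50) with a regulator and no globin.

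Summed globin levels in Procr+ and Procr-0 cells were 723 and 520 CPM for Hba-a1, 957 and 647 CPM for Hbb-bs, and 641 and 419 CPM for Hbb-bt. These gave log2 ratios of 0.47, 0.56 and 0.61, but the direction of all 3 turned without the 8 high-globin libraries (defined below), to -1.12, -1.23 and -0.33. It also turned when cells were weighted equally, to -0.53, -0.60 and -0.00057. After thinning with Procr called again on the thinned counts, which left 2608 Procr+ cells, it turned to -0.52, -0.46 and -0.51. Those groups differ from the ones used for the thinned shares. Without library TP56 alone, Hbb-bt was at 1.05, which is past 2-fold higher. No direction between the groups is therefore given for the globins. Counts of near-identical copies are also uncertain: of all 100-base windows of the transcripts, 63.3% of those in Hba-a1 occur in Hba-a2, and 49.7% of those in Hbb-bs occur in Hbb-bt. Car1 and Car2 shared no such window.

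Every library had some of the 10 genes in its Procr+ cells, and 28 of 67 had all 10. Car2, Hba-a1 and Hbb-bt were found in Procr+ cells of all 67 libraries and Hbb-bs in 66. Epor was found in 61, Gata1 in 59, Klf1 in 53, Ermap and Tspo2 in 40 each and Car1 in 39. Over the 62 libraries with at least 10 Procr+ cells, the share with Klf1 ranged from 0 to 60.9% with a median of 5.09%, and the share with Gata1 from 0 to 62.5% with a median of 7.36%. Epor ranged from 0 to 56.3% with a median of 10.4%. Klf1 and Gata1 had their highest shares in libraries Lib19 and Lib22.

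Car1 was very uneven over those 62 libraries, from no count in 26 of them to 100% of the Procr+ cells of Lib19, with a median share of 3.38%. Its level reached 1554 CPM in Lib19 and 967 CPM in Lib17, against a median of 0.716 CPM. Car2 had the narrowest range of shares, from 86.4% to 100%, with levels of 705 to 2512 CPM. The globin shares spanned nearly the whole range, from 4.55% to 100% for Hba-a1, from 0 to 100% for Hbb-bs and from 23.1% to 100% for Hbb-bt.

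**Figure D2:**
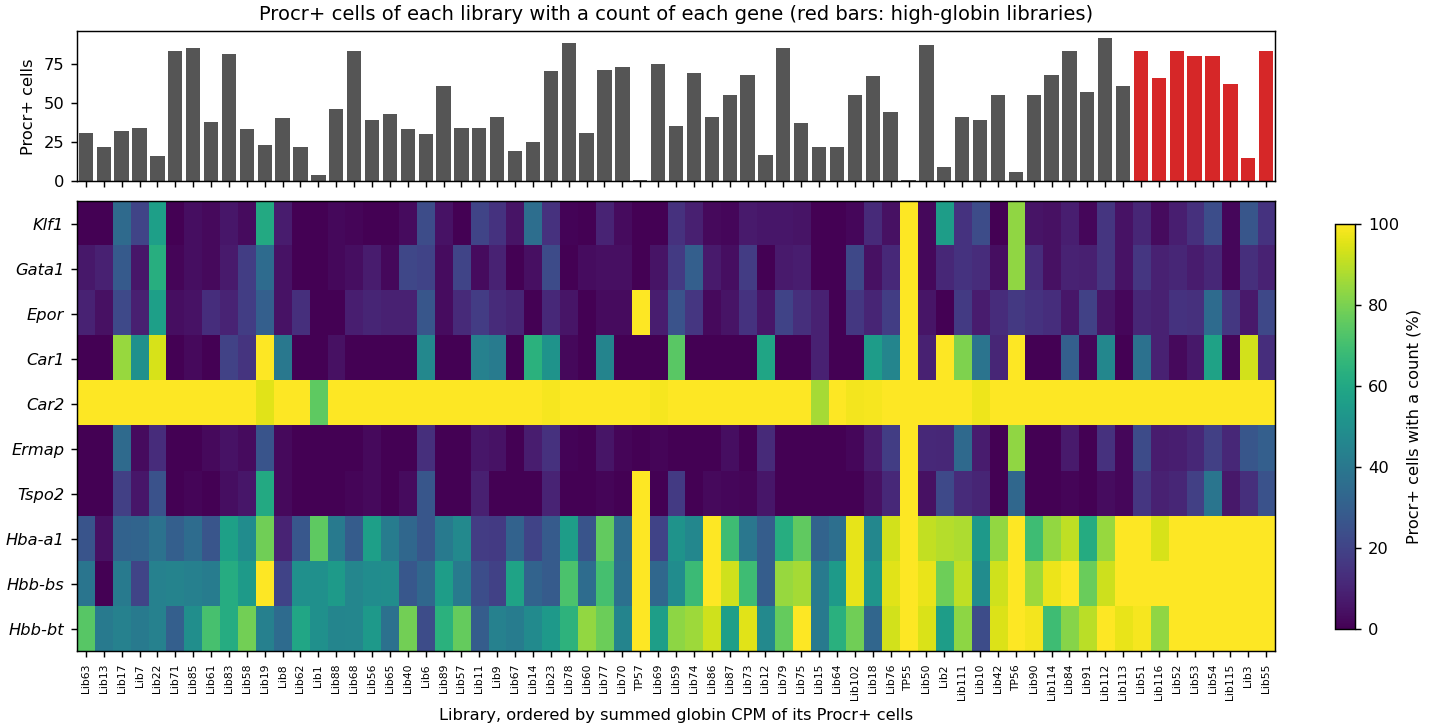
Number of Procr+ cells in each of the 67 libraries (top, red for the 8 high-globin libraries) and the share of them with a count of each gene (bottom, colour scale 0 to 100%), ordered by summed globin CPM. Car2 is filled throughout, the globin rows fill towards the right, and high Klf1 and Car1 shares are scattered over libraries of low and high globin; TP55 and TP57 each hold 1 Procr+ cell.

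The globin level was set largely by 8 libraries (Lib3, Lib51, Lib52, Lib53, Lib54, Lib55, Lib115 and Lib116), named high-globin because the summed globin CPM of their Procr+ cells exceeded 10 times the median of 342 CPM over all libraries. They held 552 Procr+ cells, and each of these cells had a globin count. By summed CPM per library, their Procr+ cells ranged from 4029 to 18103, against 56.7 to 2425 in the other 59 libraries. The lowest Procr+ cell of a library stood at 41.5 to 781 CPM there, so globin was present in cells at the bottom of the range as well as at the top. The Procr-0 cells of the same libraries, which did not enter the definition, ranged from 633 to 7989 CPM with a median of 3043. In the other libraries Procr-0 cells ranged from 0 to 18435 CPM with a median of 207. The highest Procr-0 level of all libraries was thus outside the high-globin set, in Lib113, and TP56 stood at 5712 CPM. Of the 10 libraries with the most globin in Procr+ cells, among the 40 with at least 5 cells of both kinds, 7 were also among the 10 highest in Procr-0 cells.

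In Procr+ cells of the high-globin and the other libraries, which the rule made to differ in globin, Hbb-bs stood at 4354 and 188 CPM, Hba-a1 at 3197 and 164 CPM and Hbb-bt at 2268 and 273 CPM. In these pooled sums the regulators did not share that contrast. Klf1 was at 10.8 and 9.07 CPM, Gata1 at 9.94 and 9.89 CPM and Epor at 11.3 and 8.45 CPM. Car1, at 38.2 and 42.5 CPM, and Car2, at 1529 and 1467 CPM, were also close in the sums. Library medians differed more, at 7.21 and 3.38 CPM for Klf1, 7.88 and 5.28 CPM for Gata1 and 10.5 and 7.84 CPM for Epor. For Car1 the library medians were 11.5 and 0.148 CPM, so its closeness holds for the pooled sums only. By pooled sums, Ermap, at 18.1 and 4.76 CPM, and Tspo2, at 16.9 and 2.97 CPM, were 3.79-fold and 5.69-fold higher. At least 2-fold higher levels were found for 2.71% of all genes compared. Slc4a1, a late red cell gene that encodes the anion exchanger band 3 and was named after its values were seen, was also higher, at 93.3 and 3.33 CPM. The summed level of 8 neutrophil markers moved with globin, with a library median of 4294 CPM in the Procr+ cells of the high-globin libraries (262 to 20199, all 8 markers with counts) and 57.1 CPM in the others (2.64 to 8120). Its part in the globin result was not tested.

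A small number of cells held most of the globin counts. The 96 Procr+ cells at 10000 CPM or more, 2.94% of Procr+ cells, held 73.3% of all their globin counts, and 74 of the 96 were in high-globin libraries. The 663 cells at 1000 CPM or more held 93.4%. The highest Procr+ cell, in Lib115, had 448566 CPM of globin. Of the 96 cells, 50% had a regulator count and 37.5% had Klf1, against 23.0% and 8.45% over the 2886 Procr+ cells with any globin.

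**Figure D3:**
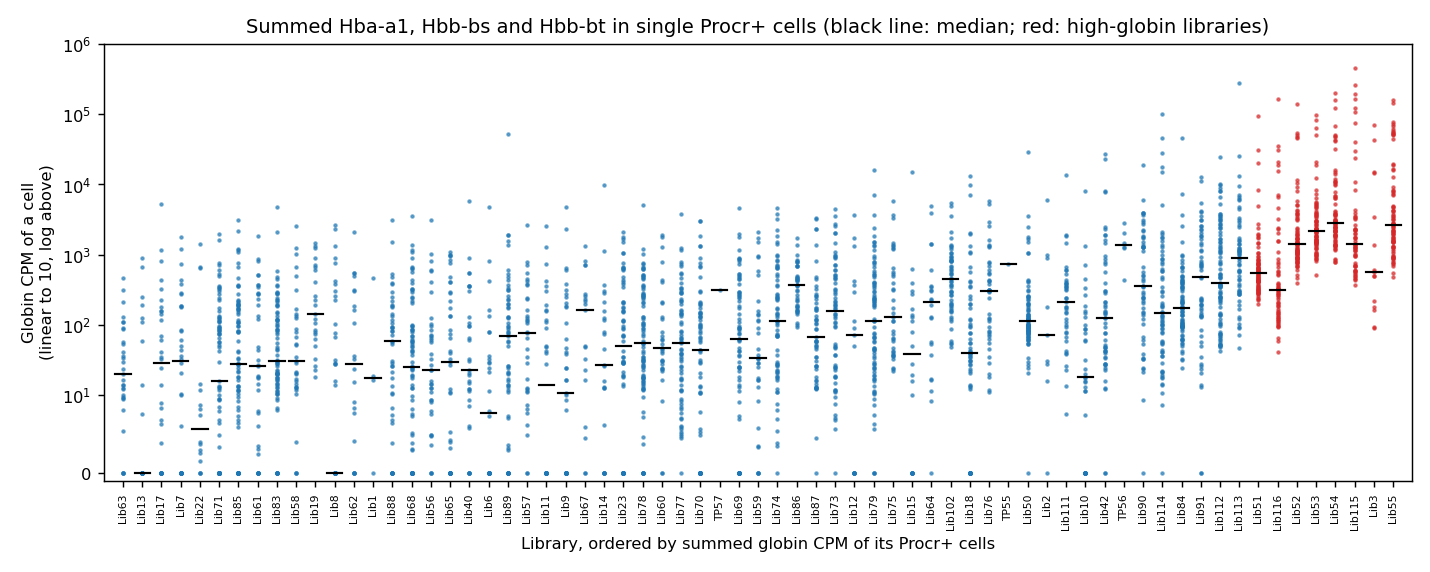
Summed CPM of Hba-a1, Hbb-bs and Hbb-bt in each Procr+ cell (points; axis linear to 10 and logarithmic above) by library, with library medians as black lines and the 8 high-globin libraries in red. In the high-globin libraries no cell lies at 0, and in Lib54 the lowest cell stands at 781 CPM.

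The non-globin genes other than Car2 tended to be found in the same cells. Car2 was counted in 4090 of the kept cells, so it adds 1 to the number of genes found in nearly every cell. Of the 4185 kept cells, 70 had none of the 7 non-globin genes, 2434 had 1 and 60 had all 7. Cells with at least 5 of the 7, called erythroid-rich here by their counts and not as a cell type, numbered 204 (4.87%) in 35 libraries. A Procr count was present in 93 of them, or 45.6% (38.6 to 52.7). The share of cells with Procr was 85.5% (84.0 to 86.8) among cells with 1 of the 7 genes, 68.8% (63.7 to 73.5) with 3 and 43.3% (30.6 to 56.8) with all 7. Summed Procr stood at 258, 174 and 27.1 CPM in these cells, whose median depths were 117852, 143381 and 309558 counts, so lower depth did not accompany the lower Procr share.

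**Figure D4:**
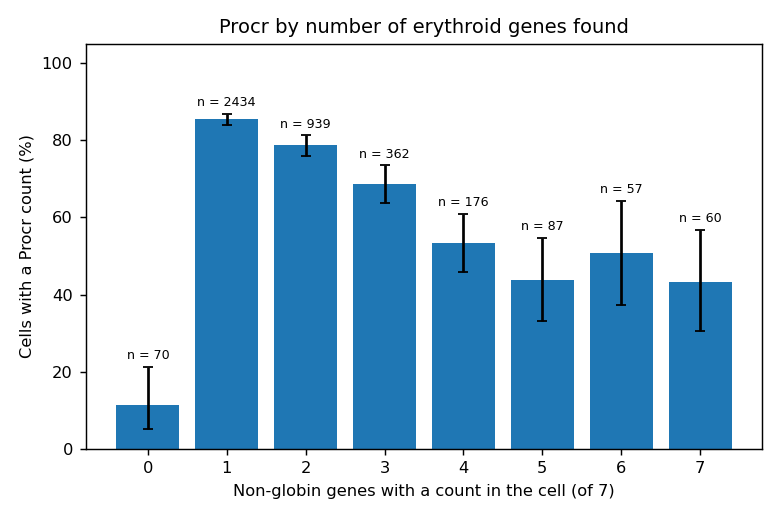
Share of cells with a Procr count (%, exact 95% intervals for counting error) by how many of the 7 non-globin genes were counted in the cell, with the number of cells above each bar. The share is 85.5% at 1 gene and 43.3% at 7; the 70 cells with none, at a median depth of 27386 counts, stand at 11.4%.

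The 93 erythroid-rich Procr+ cells, chosen by these genes, held 89.7% of all Car1 counts in Procr+ cells, 89.1% of Ermap, 82.9% of Tspo2 and 76.6% of Klf1. They held only 26.8% of the Gata1 counts, 28.2% of Epor and 6.13% of Car2. Gata1 and Epor counts in Procr+ cells thus lay mostly outside the cells in which the other genes gathered. Globins were at 5776 CPM for Hba-a1 in the erythroid-rich Procr+ cells and at 1283 CPM in the 111 erythroid-rich Procr-0 cells. Procr was in 93 of all 204 erythroid-rich cells, but in 58 of the 155 outside the high-globin libraries. The Procr+ group thus drew more on those libraries, and no direction is given for its globin. The summed level of the 8 neutrophil markers was 15041 and 5918 CPM in these groups and 1045 CPM in the remaining Procr+ cells, and its part was not tested.

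Erythroid-rich cells were unevenly spread over libraries. Lib22 held 30 of the 204 and TP56 25, and 23 libraries held 3 or more. In Procr+ cells of those 23 libraries, a regulator was counted in 34.0% (31.0 to 37.0), against 17.2% (15.7 to 18.9) in the other 44 libraries. All 3 regulators were in 3.56% and 0.263% of the cells. Median depths were 99326 and 145408 counts, and the thinned regulator shares were 17.4% (15.0 to 20.1) and 9.70% (8.49 to 11.0). A globin was in 86.6% (84.3 to 88.6) and 89.3% (87.9 to 90.5) with all counts, but after thinning in 80.4% (77.6 to 82.9) and 69.6% (67.7 to 71.5). All 3 globins were in 59.7% and 39.4%, or 48.2% and 14.5% after thinning. At equal depth, globin and regulator shares were thus both higher in the 23 libraries. Each of the 204 erythroid-rich cells had a regulator, so a higher regulator share follows in part from choosing libraries by such cells. The high-globin libraries held a median of 4.5 erythroid-rich cells (1 to 14), so some of them are among the 23. The part of this overlap in the globin shares was not tested. The summed neutrophil markers stood at 5425 and 281 CPM and the 6 basophil and mast cell markers at 91.8 and 12.5 CPM in these groups, with every marker counted in both, and their part was not tested.

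Within Procr+ cells, the regulators were lower where Procr was higher, most steadily for Gata1 and Epor. Procr+ cells were ranked by Procr CPM and cut into 4 bands of 815 or 816 cells. From the lowest to the highest band, Gata1 stood at 23.8, 8.25, 2.05 and 0.809 CPM. Epor stood at 13.3, 10.9, 5.78 and 3.92 CPM, and Klf1 at 21.8, 7.32, 1.81 and 2.73 CPM. Among 50 libraries with at least 5 cells in both end bands, Gata1 was higher in the lowest band in 33 and lower in 8, Epor was higher in 34 and lower in 9, and Klf1 was higher in 25 and lower in 11. The remaining libraries were tied. Markers of other cell types were lower towards the highest band as well, at 82.2, 17.3, 12.8 and 7.29 CPM for basophils and mast cells, which also use Gata1, and at 2113, 2315, 1249 and 573 CPM for neutrophils. B-lineage markers stood at 180, 81.6, 86.6 and 83.6 CPM. All markers of these lists had counts in every band, and their part was not tested.

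The difference for Gata1 and Epor was also present without the erythroid-rich cells, at 17.5 against 0.762 CPM and 9.65 against 3.54 CPM for the end bands. Klf1, whose counts lay mostly in the cells removed, stood at 2.34 against 2.00 CPM. Car1 stood at 108 and 6.24 CPM in the end bands and at 4.59 and 3.02 CPM without those cells. Car2 was level, at 1510, 1416, 1460 and 1533 CPM. Globin levels were higher in the lowest band, at 1377 against 513 CPM for Hbb-bs, but stood at 200 and 214 CPM without the high-globin libraries. Hba-a1 was at 1106 and 337 CPM and, without those libraries, at 184 and 161 CPM. Hbb-bt went the other way without those libraries, at 236 CPM in the lowest and 339 CPM in the highest band. Among the 50 libraries, Hbb-bt was higher in the lowest band in 24 and lower in 26. Hbb-bs was higher there in 30 and lower in 20, and Hba-a1 was higher in 32 and lower in 18. Median depth was 158330 counts in the lowest and 118731 in the highest band.

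**Figure D5:**
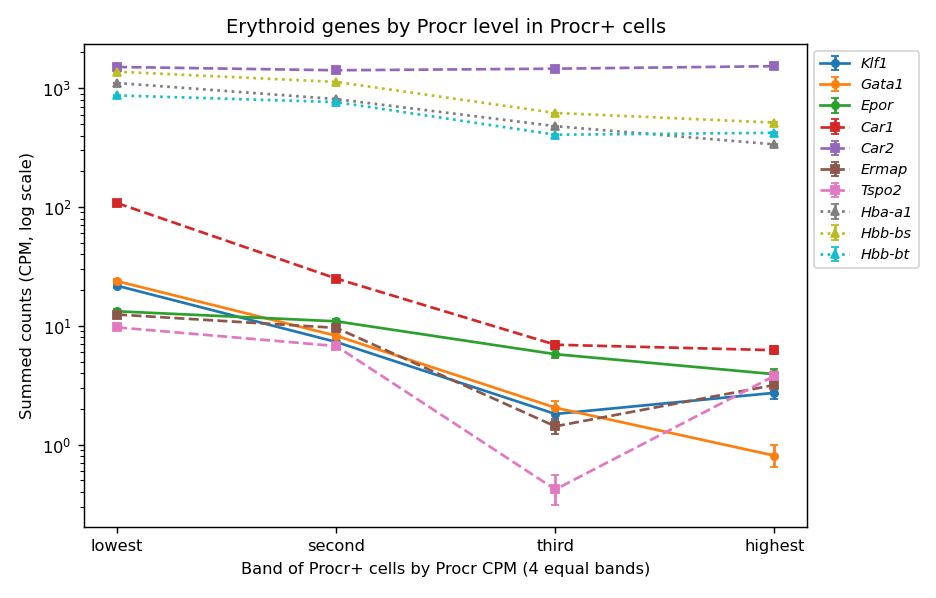
Summed CPM of each gene (log scale, exact Poisson intervals, mostly smaller than the symbols) in bands of Procr+ cells from the lowest to the highest Procr CPM; circles mark regulators, squares the other non-globin genes and triangles the globins. Gata1 goes from 23.8 to 0.809 CPM and Epor from 13.3 to 3.92 CPM while Car2 stays between 1416 and 1533 CPM. The globins are lower at the right. Without the high-globin libraries, however, the end bands were at 200 and 214 CPM for Hbb-bs and at 236 and 339 CPM for Hbb-bt.

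Procr+ cells with a clear Gata1 signal differed from those with a clear Klf1 signal. At least 5 Gata1 counts were present in 130 Procr+ cells of 47 libraries, and of these 28.5% had Klf1 (20.9 to 37.0) and 43.1% had Epor (34.4 to 52.0). At least 5 Klf1 counts were present in 80 Procr+ cells of 43 libraries, and of these 56.3% had Gata1 (44.7 to 67.3), 51.3% had Epor (39.8 to 62.6) and 56.3% had Car1. The megakaryocyte genes Pf4 and Itga2b were chosen after their values were seen. Pf4 was at 779 CPM in the Gata1 cells and 188 CPM in Procr+ cells without Gata1. Itga2b, which encodes the platelet integrin CD41, was counted in 81.5% and 50.7% of these cells. Over the whole lists, the 9 megakaryocyte markers summed to 1463 and 585 CPM and the 6 basophil and mast cell markers to 284 and 12.9 CPM in these groups. The median cell differed less, at 531 and 440 CPM for the megakaryocyte markers and 0 in both groups for the basophil and mast cell markers. In the Klf1 cells Pf4 was at 124 CPM. Their neutrophil markers stood at 8454 CPM, against 1127 CPM in Procr+ cells without Klf1. Neutrophil markers were also higher in the Gata1 cells, at 3655 CPM against 1394 CPM in Procr+ cells without Gata1. The part of these markers was not tested. Procr was at 69.7 CPM in the Gata1 cells and 118 CPM in the Klf1 cells. Median depth was 249056 counts in the Gata1 cells and 193151 in the Klf1 cells, above the 133165 of all Procr+ cells.

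Across cells, correlations were higher within the non-globin genes other than Car2 and within the globins than between these sets. Over the 4185 kept cells, which share libraries and differ in depth, Pearson correlations of log2(CPM + 1) were 0.55 for Klf1 with Car1, 0.51 for Klf1 with Ermap and for Ermap with Tspo2, and 0.39 for Klf1 with Gata1. Car2 did not follow the other 6 genes, at 0.01 with Klf1 and -0.06 with Car1. Hba-a1 with Hbb-bs was at 0.74. Against the mean of the 3 globins, Klf1 was at 0.09, Gata1 at 0.01 and Ermap at 0.21. Globin was still higher in cells with more of the non-globin genes, at 736 CPM in cells with 1 of the 7 and 3425 CPM with 3. It stood at 5454 CPM with 5, 15078 CPM with 6 and 9969 CPM with 7. These are sums over pooled cells that include the high-globin libraries. Without those libraries, the correlation with the globin mean was 0.15 for Ermap and 0.07 for Tspo2, against 0.21 and 0.18 with them. After thinning, Hba-a1 was counted in 66.9% of cells with Ermap (58.0 to 75.0) and 41.4% of those without (39.8 to 43.0), and in 61.7% of cells with Tspo2 (52.4 to 70.4) and 41.6% without (40.0 to 43.2). For Gata1 the shares were 39.6% (33.7 to 45.7) and 42.4% (40.8 to 44.1). The correlations are descriptions, since cells are not replicates and sparse counts hold correlations down.

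Among 12487 other genes counted in at least 50 cells, the 5 most like the mean of the 7 non-globin genes were Slc25a21 (r = 0.57), Slc38a5 (0.54), Sphk1 (0.53), Atp1b2 (0.52) and Mfsd2b (0.51). Each was counted in 146 to 437 of the 4185 cells. Without the erythroid-rich cells, which were chosen by the non-globin genes, they were at 0.17, 0.19, 0.25, 0.20 and 0.24. The 5 most like the mean of the globins were the alpha-globin copy Hba-a2 (0.78), Slc4a1 (0.48), Apol11b (0.45) and the neutrophil genes S100a9 (0.43) and S100a8 (0.42). Without the high-globin libraries, which were chosen by globin level, these were at 0.63, 0.29, 0.20, 0.23 and 0.25.

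Other genes of the red cell pathways passed 2-fold about as often as all genes did. Of 83 pathway genes outside the members, 77 were in the matrix and 60 could be compared, of which 4 were at least 2-fold lower and 2 at least 2-fold higher in Procr+ cells, against 5.68% lower and 3.56% higher over all genes. Their median log2 ratio was 0.06, against 0.05 over all genes. Among 17 erythroid transcription factor and cofactor genes, 1 (E2f2, at 9.47 and 24.1 CPM in Procr+ and Procr-0 cells) was lower and none higher. Gata2, the stem and progenitor GATA factor gene, was at 174 and 135 CPM, and its partner Tal1 at 48.6 and 35.7 CPM. Among 10 genes of Epo receptor signalling, the kinase gene Lyn was lower, at 36.4 and 81.4 CPM, and Cish, a STAT5 target that restrains cytokine signalling, was higher, at 27.4 and 8.37 CPM. Among 8 red cell membrane genes Cldn13 was lower, at 6.46 and 24.2 CPM.

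Of 14 genes of haem synthesis and iron uptake, the transferrin receptor gene Tfrc was lower, at 26.3 and 67.6 CPM. Alas2, which encodes the first enzyme of red cell haem synthesis, was higher, at 9.98 and 2.92 CPM, but in Procr+ cells it stood at 51.3 CPM in the high-globin libraries and 0.624 CPM in the others. Among 13 red cell enzyme and other genes, none of the 10 that reached 5 CPM over all kept cells passed 2-fold. By the rule for naming pathway genes, which does not use that minimum, the lowest log2 ratios were those of Cited4 (-1.83), Cldn13 (-1.75) and Sphk1 (-1.66), of which Cited4 and Sphk1 are among the 3 left out of that count, and the highest those of Cish (1.60), Bpgm (0.93) and Socs1 (0.78).

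A comparison was made with 94 lymphoid-marker cells, which had no Procr count and at least 10 counts of each of 4 or more B- or T-lineage markers. Car2 was counted in 53.4% of them after thinning (42.5 to 64.1) and the globins in 40.9% for Hba-a1, 48.9% for Hbb-bs and 27.3% for Hbb-bt. Klf1 was in 12.5% (6.41 to 21.3), Gata1 in 7.95% (3.26 to 15.7), Epor in 5.68% (1.87 to 12.8) and Car1 in 30.7% (21.3 to 41.4). In all Procr+ cells together, the thinned shares of Klf1, Gata1, Car1, Ermap, Tspo2 and Hbb-bs were below those in lymphoid-marker cells. For Klf1 and Car1 they were also below the lymphoid interval, but for Gata1 and Hbb-bs they were within it. The shares of Epor and Hba-a1 were within the lymphoid interval as well. Those of Hbb-bt, at 49.5%, and Car2, at 99.2%, were above it. The lymphoid-marker cells were themselves not free of erythroid counts. With all counts, all 3 regulators were found in 10.6% of them (5.22 to 18.7) and in 1.26% of Procr+ cells. Their 10 erythroid markers summed to 209 CPM, against 89.5 CPM in Procr+ cells. They are thus no floor for expression. The shares of the 8 genes below or within theirs do not by themselves show expression in Procr+ cells or its absence. The lymphoid-marker cells came from 16 libraries and had a median depth of 56740 counts.

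The same comparison was made with cells pooled over the 6 libraries with at least 3 thinned lymphoid-marker cells (Lib1, Lib2, Lib3, Lib17, Lib22 and TP57). It held 68 Procr+ and 71 lymphoid-marker cells. The 2 kinds were not matched within each library, so differences between the 6 libraries remain in the shares. Car2 was counted in 97.1% (89.8 to 99.6) and 50.7% (38.6 to 62.8), with a median of 1054 and 32.2 CPM per cell. Klf1 was counted in 17.6% (9.47 to 28.8) and 14.1% (6.97 to 24.4), and Gata1 in 17.6% (9.47 to 28.8) and 9.86% (4.06 to 19.3). Epor was in 14.7% (7.28 to 25.4) and 4.23% (0.880 to 11.9). Hbb-bs was in 36.8% (25.4 to 49.3) and 54.9% (42.7 to 66.8), the lower share being that of Procr+ cells. Car2 was the gene whose interval in Procr+ cells lay wholly above that of lymphoid-marker cells, and for the other 9 genes the intervals overlapped.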

How the data were processed

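Per the labels' protocols, single-cell libraries followed a Smart-seq2 variant (STRT-seq) in which 3' fragments were pulled down. The deposited matrix holds the authors' whole-number counts per gene and cell, not normalized. Trimmomatic 0.36, HISAT2 2.1.0, HTSeq 0.9.1 and GRCm38 are named in the submitters' processing notes. A library of 17 cells was not used here. Doublets were not called, as each tube received 1 sorted cell.

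Counts were summed over groups of cells, and a gene was compared if it reached 5 CPM over all kept cells. Fold differences used a pseudocount of 1 CPM. Shares have exact Clopper-Pearson and CPM values exact Poisson intervals (95%), covering counting error only. The summing and ratio steps were tested on simulated data. Python 3.11.15, numpy 2.4.6, scipy 1.17.1 and pandas 2.3.3 were used. Positions are from GENCODE M21, and promoters from RefSeq, where 8 of 10 members matched by symbol; Car1 and Car2 have no promoter here.

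The members, the 6 pathway and 7 marker lists and all rules were chosen with earlier results of these data known. Named beyond the members were the 3 highest and 3 lowest ratios among pathway genes at 10 CPM or more in either group, and the 5 genes most like each of the non-globin and globin means. The lymphoid-marker cells were redefined after the data had been seen, because the first set, with markers at 1 count each, had Klf1 in 32.0% and Car1 in 58.7% of its 206 cells. Alternatives were other cell filters, Procr and detection thresholds, pseudocounts, thinning and libraries left out.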

Additional observations from a re-analysis of the deposited data

How the results depend on the processing

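The 4 main results were the number of genes at least 2-fold lower in Procr+ cells (5 of 10), the shares of Procr+ cells with a regulator (22.3%) and with a globin (88.4%), and the share of erythroid-rich cells with Procr (45.6%). Of 32 values under alternatives other than leaving out 1 library, 19 stayed within the interval or, for the number of genes, within 1.5 times, and 13 moved. With a Procr threshold of 5 counts the globin share was 89.7% and the erythroid-rich share 27.0%. With Procr and all genes called again after thinning to 20000 counts, the regulator share was 10.7%, the globin share 73.6% and the erythroid-rich share 25%. Without the libraries holding 3 or more erythroid-rich cells, 1 gene was 2-fold lower, the regulator share was 17.2% and the erythroid-rich share 66.7%. Without the 8 high-globin libraries, an alternative chosen after seeing the data, 8 genes were 2-fold lower, the globin share was 86.1% and the erythroid-rich share 37.4%. Counting a gene as found at 5 counts gave 9.07% for regulators and 63.2% for globins. The causes were not tested.

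Leaving out each of the 67 libraries in turn gave 5 to 6 genes, 21.7% to 22.7% with a regulator, 88.1% to 89.0% with a globin and 42.1% to 51.1% of erythroid-rich cells with Procr. No gene that was 2-fold lower changed sign under any alternative. Depth limits the sparse genes: a gene with no count in any of the 3263 Procr+ cells could still have a share of about 0.0919% among cells of this kind. That value is 3 in 3263, an approximation and not the exact interval. No paired analysis was possible because cells could not be assigned to samples and no test was made.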
